A study of Homo sapiens with 3 samples.

Results

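The 10 genes described here are the AP-1 subunits FOS, FOSB, FOSL1, FOSL2, JUN, JUNB and JUND, with EGR1, IER3 and MYC, which are also induced early when cells are stimulated. They were chosen by name, and every non-control probe carrying 1 of these gene names was taken, which gave 16 of the 41000 probes and 10 of the 30968 gene names on the array. Their transcripts were measured in 1205Lu, a human melanoma cell line obtained from a lung metastasis of a WM793 xenograft, on 1-colour Agilent arrays (Cy3, 4 × 44K design). The OM (original monolayer) cells had 14 days in RPMI-1640 with 10% FCS. The MB (melanoma bodies) cells had 14 days in hESC medium, DMEM F-12 with 20% Knock Out serum replacement. The NM (new monolayer) cells had the same 14 days in hESC medium, then 10 days in RPMI-1640 with 10% FCS, and the remaining 3D bodies had been taken away before RNA was prepared. MB thus differed from both monolayers in medium and serum at harvest as well as in growth form. According to the paper, the bodies were collected by detaching them, and their hESC medium had to be replaced daily. The effect of this handling on the ratios was not tested. There was 1 array per population, so each difference below is between single samples of 1 cell line.

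AP-1 is a pair of basic leucine zipper (bZIP) proteins, a JUN protein with a FOS protein or with a second JUN protein, that binds short DNA elements upstream of genes for proteases, cytokines and cell cycle proteins. FOS, FOSB, JUN, JUNB, EGR1, IER3 and MYC are immediate early genes: serum, growth factors or stress raise their transcription through MAP kinases, without new protein synthesis, and their mRNAs are mostly short-lived. In melanoma the BRAF and MAP kinase route is commonly active and feeds into several of these genes.

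Promoters are shown for the genes with an entry in the promoter table that reached 2-fold in any comparison, and for JUN, which differed least. Each line gives the 150 bases before the RefSeq transcript start (GRCh38.p14), 5′ to 3′ on the gene's own strand, and the capitals mark every match to a motif searched for. FOS lies at chr14:75278678-75278827 (+), FOSB at chr19:45467846-45467995 (+), EGR1 at chr5:138465329-138465478 (+), FOSL2 at chr2:28392708-28392857 (+) and JUN at chr1:58784048-58784197 (-).
FOS: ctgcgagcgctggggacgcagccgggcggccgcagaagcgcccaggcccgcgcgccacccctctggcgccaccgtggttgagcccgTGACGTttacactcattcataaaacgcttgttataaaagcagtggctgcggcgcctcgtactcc
FOSB: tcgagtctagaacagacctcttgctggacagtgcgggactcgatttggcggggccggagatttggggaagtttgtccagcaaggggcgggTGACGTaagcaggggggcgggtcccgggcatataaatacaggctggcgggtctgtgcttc
EGR1: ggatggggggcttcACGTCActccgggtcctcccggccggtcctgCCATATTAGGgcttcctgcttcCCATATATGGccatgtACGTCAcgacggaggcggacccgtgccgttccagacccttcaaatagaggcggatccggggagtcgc
FOSL2: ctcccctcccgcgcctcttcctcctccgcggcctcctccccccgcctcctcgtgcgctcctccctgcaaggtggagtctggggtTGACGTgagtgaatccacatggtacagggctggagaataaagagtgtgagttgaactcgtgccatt
JUN: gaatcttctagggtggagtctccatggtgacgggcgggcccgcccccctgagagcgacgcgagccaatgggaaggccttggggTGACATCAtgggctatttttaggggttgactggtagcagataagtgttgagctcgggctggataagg
The FOS, FOSB and FOSL2 windows each held a single TGACGT, the core of the cAMP response element, which began 64, 60 and 66 bases before the start. The EGR1 window held the same core on the other strand at 136 and at 67 bases before the start, and 2 CArG boxes, the elements bound by serum response factor, at 105 and 83 bases. The JUN window held none of these but had TGACATCA, an AP-1 element of the JUN type, 67 bases before its start. Of the 10 genes 7 had an entry in the promoter table (FOSL1, IER3 and MYC had none), and over the full 250 bases searched on both strands 5 of the 7 held TGACGT, beside 7.10% of all 35116 promoters. A CArG box was found in 1 of the 7 (1.16% of all promoters), TGACATCA in 1 (2.37%), and the complete element TGACGTCA, which contains TGACGT on both strands, in 1, JUND (1.65%). The AP-1 element TGANTCA, the MYC element CACGTG, and the EGR elements GCGTGGGCG and GCGGGGGCG were in 0 of the 7 (6.57%, 6.34%, 0.720% and 4.72% of all promoters). A match here describes the letters only, and the motifs were chosen after the sequences had been seen. Bases further upstream were not searched, so a gene without a match can still hold the element there.

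Signals are fluorescence in arbitrary units (a.u.), with each array scaled to OM by its average for HSP90AA1, ACTB and GAPDH (divisors 0.978 for MB and 0.877 for NM), and ratios are given on the log2 scale. The share of probes well above background was 64.7% to 71.0% per array. A gene with several probes is represented by its brightest. A gene passed where the brighter of the 2 arrays was above 100 a.u. before scaling, and was called at a 2-fold ratio. The study's own 5-fold is given beside it. No test was possible with 1 array per population. For probes printed in 10 spots, single spots gave an SD of the log2 ratio of 0.04 to 0.05. The scanner software gave an error of 10.0% to 22.3% for the 15 probes of these genes well above background on all 3 arrays. Neither covers the spread between cultures. Of the melanocyte lineage markers, 5 of 8 were well above background on all arrays, among them SOX10 (6254 a.u. in OM, 9598 in MB and 5571 in NM) and S100B (25155, 44767 and 15170). The pigment enzymes TYR and TYRP1 stayed below that limit on all 3 arrays, as did COL1A1 and COL1A2 of fibroblasts, KRT5 of keratinocytes, PTPRC of leukocytes and CDH5 of endothelium. Markers of other cells that were well above background on all 3 arrays were 1 of 6 for fibroblasts (PDGFRB, at 1246, 2375 and 3120 a.u. in OM, MB and NM), 2 of 5 for keratinocytes (KRT10, at 39103, 40289 and 37219 a.u., and KRT14, at 213, 381 and 134 a.u.), 3 of 5 for leukocytes (CD3E and CD14 among them) and 1 of 4 for endothelium (VWF, at 185, 399 and 109 a.u.). The summed signal of the leukocyte list was 214 to 227 a.u. and that of the endothelial list 229 a.u. in OM, 512 in MB and 156 in NM. KRT14, KRT10, VWF, SOX10 and S100B were highest in MB and lowest in NM, the order of EGR1. Of the other melanocyte lineage markers well above background, SILV (286, 214 and 309 a.u. in OM, MB and NM) and DCT (66.7, 64.3 and 73) had the reverse order. MITF (423, 734 and 628 a.u.) was lowest in OM. The part of these markers in the results was not tested.

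The 10 genes did not move as a group. EGR1 was highest in MB and lowest in NM, FOS and FOSB were lowest in NM, and FOSL1 and FOSL2 were lowest in MB. JUN was nearly level, and JUNB, JUND, IER3 and MYC were lowest in OM. All 6 possible orders of the 3 populations occurred among the 10 genes, each in 1 or 2 of them. Some orders rest on near ties that turned with the scaling. These were MB against OM for FOS and JUNB, and MB against NM for JUN and JUND.

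**Figure D1:**
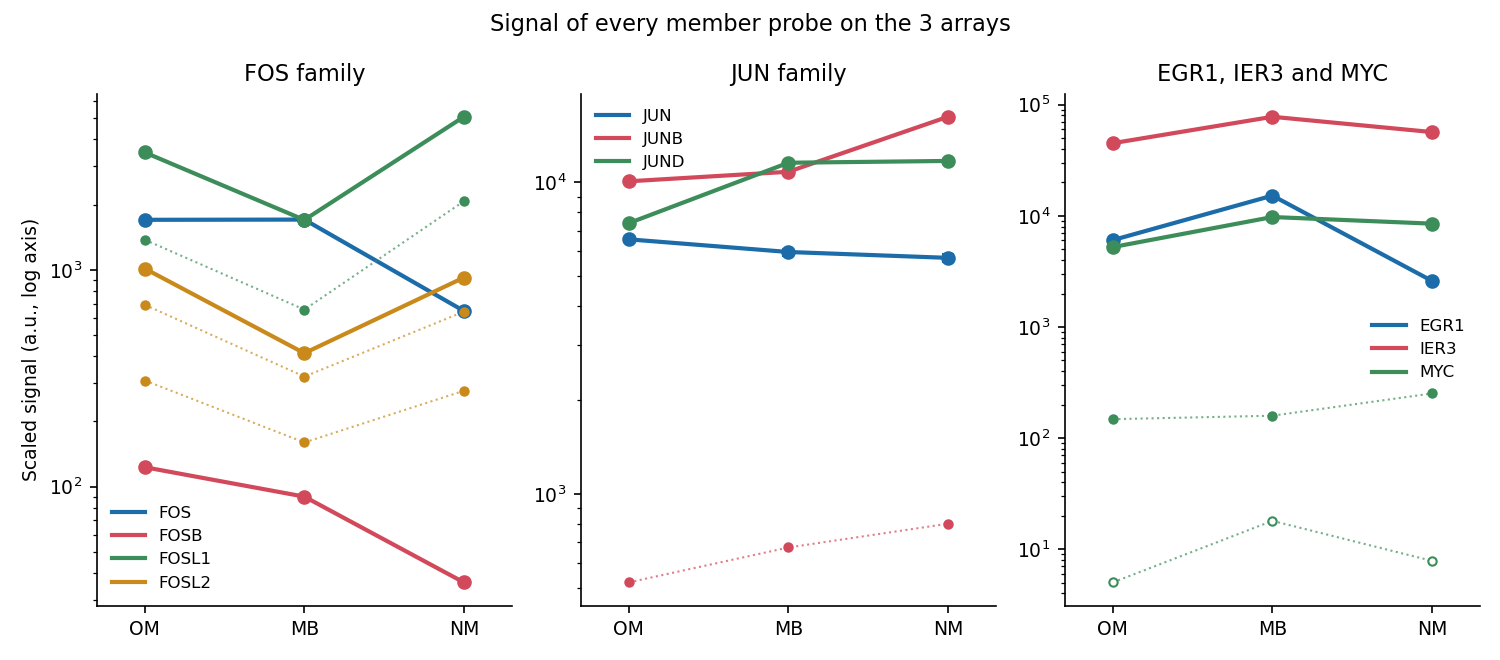
Scaled signal (a.u., log axis) of all 16 probes on the OM, MB and NM arrays, in 3 panels by gene family. Solid lines are the brightest probe of each gene, dotted lines its other probes, open circles signals not well above background, and bars the SD over 10 spots (JUN and MYC only, mostly smaller than the points). EGR1 is at 6051 in OM, 15207 in MB and 2600 in NM, while FOSL1 and FOSL2 are lowest in MB on every probe.

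EGR1 encodes a zinc finger transcription factor that is switched on by serum response factor and by the ETS proteins that MAP kinases phosphorylate. Its single probe (hg17 chromosome 5, 137832790 to 137832849) read 6051 a.u. in OM, 15207 in MB and 2600 in NM. MB was thus the highest and NM the lowest, with log2 ratios of 1.33 for MB over OM (2.51-fold), 2.55 for MB over NM (5.85-fold) and -1.22 for NM over OM (2.33-fold lower). MB over NM was the sole ratio of the 10 genes to reach 5-fold. In bulk RNA, fewer cells with a transcript and less of it per cell cannot be told apart. The genes whose pair of ratios to OM lay nearest to that of EGR1, among 11467 compared, were LSR, ASB2 and C6orf154. LSR read 319, 731 and 142 a.u. in OM, MB and NM and was 0.14 log2 units from EGR1, and the other two were each at 0.16.

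FOS, the founding partner of JUN in AP-1, read 1703 a.u. in OM, 1707 in MB and 647 in NM (hg17 chromosome 14, 74817967 to 74818026). OM and MB were level (log2 ratio 0.00), and NM was below both, with a log2 ratio of -1.40 to OM (2.63-fold lower), and MB over NM was 1.40 (2.64-fold). FOSB, a close relative that is also induced by serum, was far dimmer, on its single probe (hg17 chromosome 19, 50670045 to 50670104), at 123 a.u. in OM, 90.0 in MB and 36.2 in NM. NM was again the lowest, and the log2 ratio of NM to OM was -1.76 (3.39-fold lower), the largest ratio to OM of the 10 genes. The NM signal of FOSB carried a software error of 22.3%, and lay near 33.2 a.u., the lowest NM signal that counted as well above background, and the log2 ratio was -0.96 without background subtraction and -0.89 with normexp correction. MB over NM was 1.32 for FOSB, but neither array was above 100 a.u. before scaling, so it was not counted. The 3 genes nearest to FOSB in their 2 ratios to OM were CCDC17 (0.12 log2 units away), TSPAN13 (0.13) and SDF2L1 (0.18).

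FOSL1 (FRA1), a FOS protein that lacks the strong activation domain of FOS and that accumulates with sustained MAP kinase activity, read 3482 a.u. in OM, 1701 in MB and 5087 in NM (hg17 chromosome 11, 65416674 to 65416733). It was lowest in MB, with log2 ratios of -1.03 to OM (2.05-fold lower) and -1.58 to NM (2.99-fold lower), and highest in NM (0.55 over OM). Its second probe gave 1377, 656 and 2074 a.u. and ratios of -1.07, -1.66 and 0.59 in the same order. FOSL2 (FRA2), the related subunit, read 1014 a.u. in OM, 413 in MB and 922 in NM, so MB was the lowest here too. Its log2 ratios were -1.29 to OM (2.45-fold lower) and -1.16 to NM (2.23-fold lower), with OM and NM close together (-0.14). The other two FOSL2 probes kept this order, with 690, 322 and 642 a.u. on the brighter and 309, 160 and 277 on the dimmer. Their ratios were smaller, at -1.10 and -0.95 for MB over OM and -0.99 and -0.79 for MB over NM. FOSL1 and FOSL2 therefore lay on the other side of EGR1 in MB, while FOS was level there with OM.

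JUN, the main DNA-binding partner of the FOS proteins, has a probe printed in 10 spots. It averaged 6558 ± 122 a.u. in OM (SD, 10 spots), 5973 ± 154 in MB and 5720 ± 157 in NM. The spots ran from 6337 to 6678 in OM, above all those on MB (5639 to 6155) and NM (5423 to 5975), while MB and NM overlapped. The log2 ratio of MB to OM was -0.13 and that of NM to OM was -0.20, the narrowest range of the 10 genes, and the sign of MB over NM (0.06) turned with 3 of the 6 other scalings.

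JUNB, which can hold back JUN activity, read 10070 a.u. in OM, 10805 in MB and 16221 in NM. NM was the highest (0.69 over OM), and MB was close to OM, at 0.10, which was below 0 with 75th percentile or spike-in scaling. A second JUNB probe, 1049 bases away, read 520, 673 and 802 a.u. and gave the same order. JUND, the subunit usually present without stimulation, read 7394 a.u. in OM, 11550 in MB and 11705 in NM. MB and NM lay together (-0.02, a sign that also turned with scaling) above OM, by 0.64 and 0.66. No JUN family gene reached 2-fold in any comparison.

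**Figure D2:**
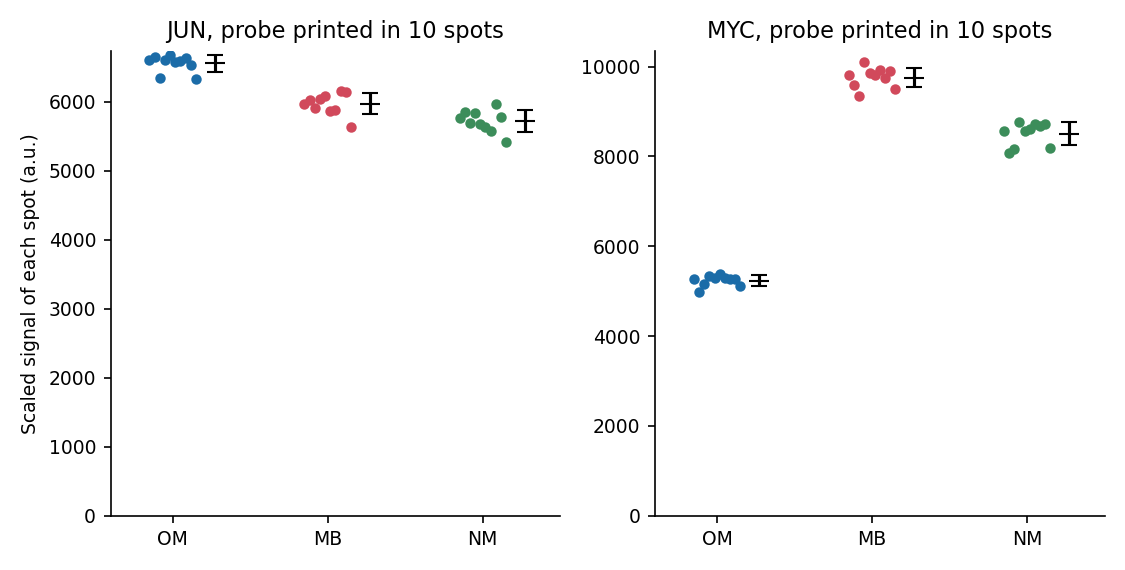
Scaled signal (a.u.) of each spot of the JUN and MYC probes printed in 10 spots, on the OM, MB and NM arrays, with the mean and SD over spots in black beside them. The MYC spots of the 3 arrays do not overlap, and the JUN spots of MB and NM do.

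MYC encodes a basic helix-loop-helix transcription factor that drives ribosome synthesis and growth, and its gene is on chromosome 8. Its probe printed in 10 spots averaged 5236 ± 117 a.u. in OM (SD, 10 spots), 9757 ± 222 in MB and 8506 ± 259 in NM. The spots on OM (4990 to 5374) lay below those on NM (8078 to 8764), and these below those on MB (9344 to 10098). The log2 ratio was 0.90 for MB over OM, 0.70 for NM over OM and 0.20 for MB over NM. A second MYC probe, which starts 5453 bases before the first, read 148, 159 and 252 a.u. and placed NM, not MB, highest, with 0.10 for MB over OM and 0.77 for NM over OM. The 2 probes thus gave a like value for NM over OM but not for MB over OM. The last MYC probe was below that limit throughout. IER3, an early gene that protects cells from death signals, read 45067 a.u. in OM, 77872 in MB and 56742 in NM. It was highest in MB, by 0.79 over OM and 0.46 over NM, short of 2-fold.

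Counted against all protein-coding genes on the array, 10 of the 10 genes passed the signal limit for MB over OM. EGR1 was at least 2-fold higher (6.66% of 11516 genes were), and FOSL1 and FOSL2 were at least 2-fold lower (3.79% of genes). None reached 5-fold, as 1.83% of genes did. For MB over NM 9 of the 10 passed, with FOS and EGR1 higher (11.2% of 11539 genes) and FOSL1 and FOSL2 lower (9.17%), and EGR1 alone at 5-fold (3.16%). For NM over OM all 10 passed, with 0 higher (4.55% of 11418 genes), FOS, FOSB and EGR1 lower (3.00%), and 0 at 5-fold (0.841%). These comparisons share arrays, OM in the first and last, MB in the first and second, and NM in the second and last. They are therefore not separate evidence on any gene.

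The median log2 ratio of the genes that passed was 0.05 for MB over OM, 0.06 for MB over NM and 0.10 for NM over OM, close to the medians of 0.15, 0.06 and 0.11 over all genes. The median size of the ratio, sign left out, was 0.72, 0.59 and 0.68, beside 0.34, 0.48 and 0.31 over all genes. The median of all genes for MB over OM was -0.13 with spike-in scaling, a shift of the whole array, and 3.92% of genes were then higher and 6.31% lower. Without scaling 14.5% of genes were higher and 7.12% lower for MB over NM, and 2.94% higher and 4.58% lower for NM over OM.

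**Figure D3:**
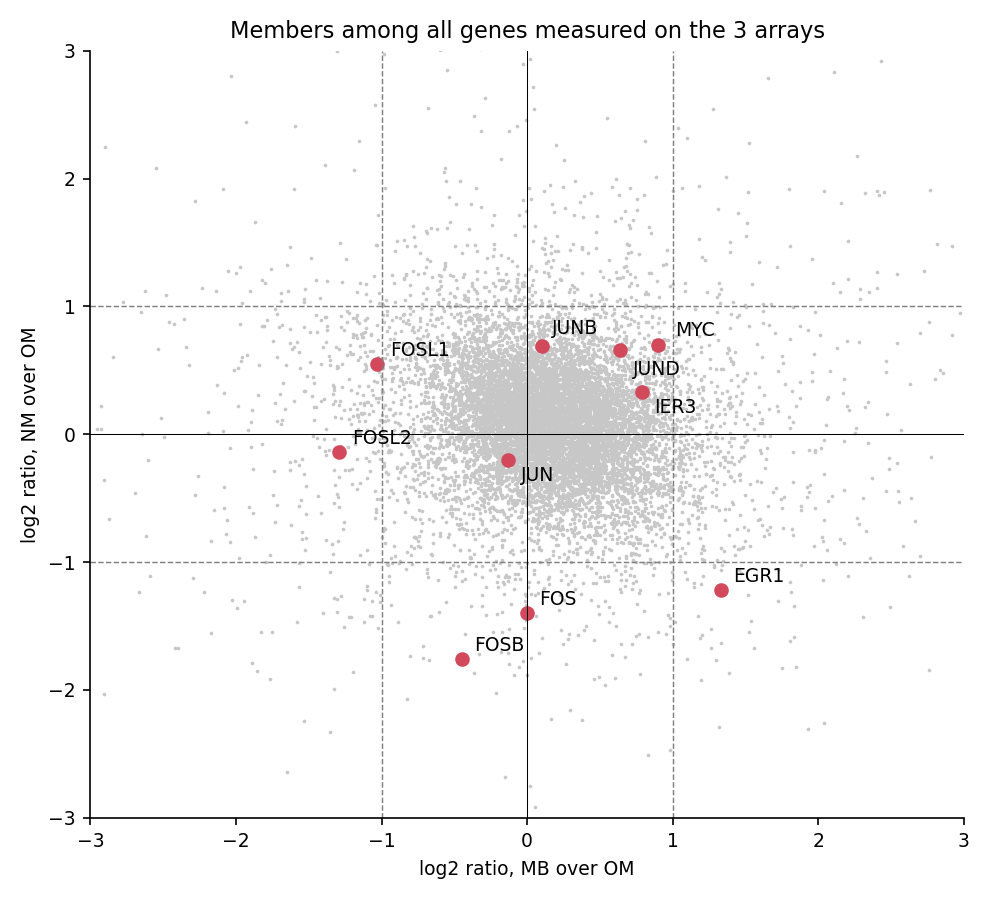
Log2 ratio of MB to OM (horizontal) against that of NM to OM (vertical) for the 11468 genes measured on all 3 arrays (grey, those within 3 log2 units shown), with the 10 genes in red. Dashed lines mark 2-fold, and both axes share the OM array. EGR1 lies at lower right, FOS and FOSB at the bottom, and FOSL1 and FOSL2 at the left.

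The genes that work with these 10 were taken as lists, chosen with earlier results of these data known. The background for each list is the share of all genes past 2-fold. This was 6.66% higher and 3.79% lower for MB over OM, and 11.2% and 9.17% for MB over NM. For NM over OM it was 4.55% and 3.00%. The medians over all genes were 0.15, 0.06 and 0.11 in that order. Among 14 other bZIP proteins that pair with AP-1 subunits or bind similar DNA, 12 passed the signal limit, and BATF3 had no probe. For MB over OM 0 were 2-fold higher and 2 were lower. ATF3, a stress-induced repressor, read 5226 a.u. in OM, 973 in MB and 9527 in NM, a log2 ratio of -2.42 against OM and -3.29 against NM in MB, and its second probe gave -2.71 against NM. JDP2, a JUN partner that represses AP-1 sites, read 23245, 6120 and 35664 a.u. (-1.93 and -2.54). Both were lowest in MB and highest in NM, the order seen for FOSL1. MAFF, a small MAF protein, joined them for MB over NM, at 2104, 1132 and 3419 a.u. (-1.60). For NM over OM none of the 12 reached 2-fold, and their median was 0.26 beside 0.11 over all genes.

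Among 25 other immediate early genes 4 were at least 2-fold higher and 3 lower in MB over OM, 16% and 12% of them. The shares over all genes were 6.66% and 3.79%. The median of the list was 0.14, beside 0.15 over all genes. EGR3, a relative of EGR1, read 1728 a.u. in OM, 2437 in MB and 463 in NM, with log2 ratios of 0.50, 2.40 and -1.90 for MB over OM, MB over NM and NM over OM. EGR4 read 321, 527 and 156 a.u., again highest in MB and lowest in NM. EGR2, by contrast, read 987, 2098 and 2240 a.u., and was higher in both MB and NM than in OM. This set the zinc finger EGR genes apart from each other in NM, where EGR1, EGR3 and EGR4 were below OM and EGR2 above it. The order of EGR1, MB above OM above NM, was found in 8 of the 25, and the reverse, NM above OM above MB, in 6. Among the 8, ZFP36 (2136, 2174 and 1733 a.u.) and BTG2 (1396, 1481 and 1215 a.u.) were nearly level between OM and MB. The share of all genes with this order was not counted.

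NR4A2, an orphan nuclear receptor, read 151 a.u. in OM, 649 in MB and 344 in NM, a log2 ratio of 2.10 for MB over OM. NR4A3 (418, 1096 and 630 a.u.) and RHOB, a small GTPase (45.6, 168 and 55.5 a.u.), were the remaining genes higher in MB than in OM, with EGR2. NR4A1 read 4191, 8143 and 3291 a.u. and passed 2-fold for MB over NM only (1.31). In the other direction CYR61, a matrix protein induced by serum, read 52406 a.u. in OM, 4551 in MB and 38691 in NM, a log2 ratio of -3.53 for MB over OM. All 3 CYR61 probes were low in MB, the other two at -3.53 and -3.58. CTGF, a matrix protein of the same family, read 27142, 6648 and 11058 a.u., and GADD45B, a stress protein, read 7944, 2413 and 15253 a.u. For MB over NM the 6 lower genes were CYR61, GADD45B, KLF2, KLF4, ARC and PPP1R15A, and the 4 higher ones EGR3, EGR4, NR4A1 and RHOB. For NM over OM, where 24 passed, EGR2, NR4A2 and PPP1R15A (2190 a.u. in OM and 8459 in NM) were higher and EGR3, EGR4 and CTGF lower.

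**Figure D4:**
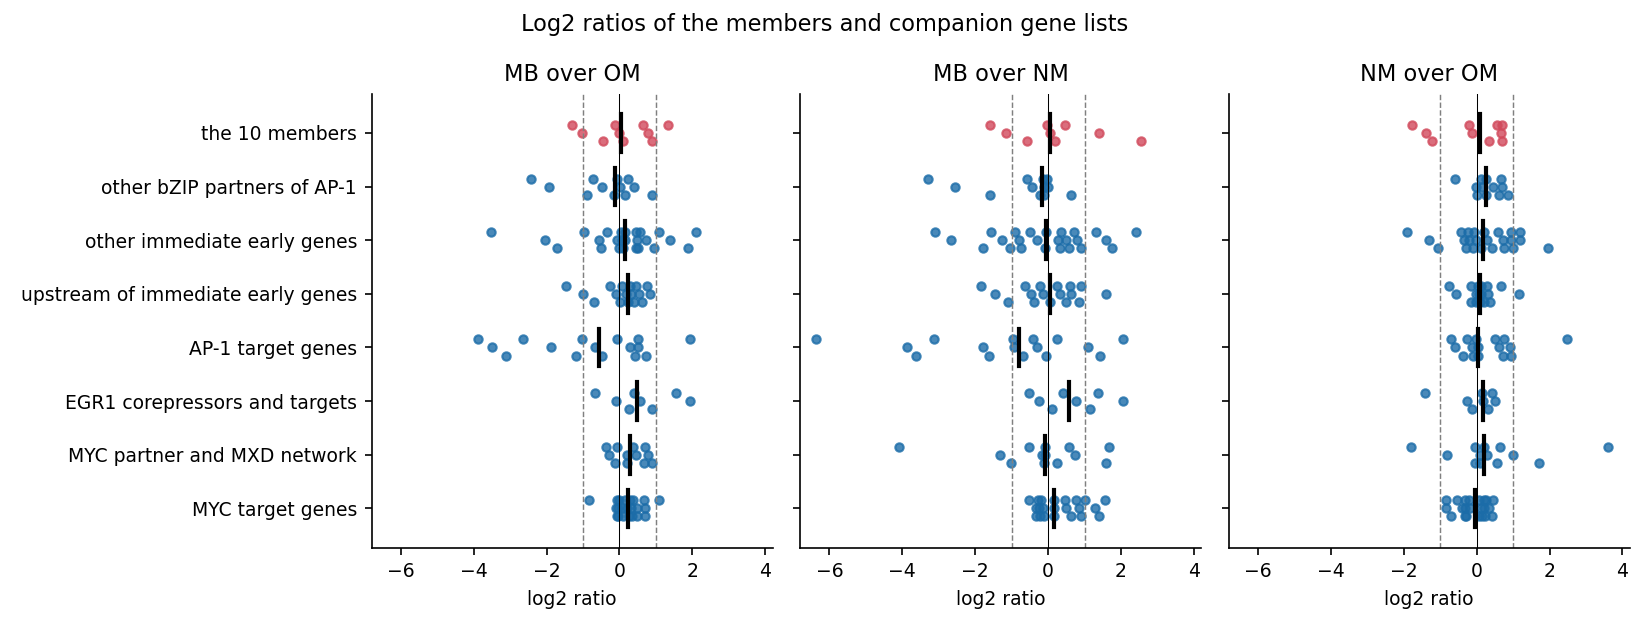
Log2 ratios of the 10 genes (red) and of each companion list (blue) in the 3 comparisons, 1 point per gene that passed the signal limit, with the median as a black bar and 2-fold as dashed lines. The AP-1 target genes reach -6.37 for MB over NM (IL8), while most MYC target genes stay within 2-fold.

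Of 21 genes upstream of this response, the MAP kinases, their activators and the serum response factor complex, 17 passed. SRF read 12936 a.u. in OM, 17599 in MB and 11651 in NM, within 2-fold throughout. The genes past 2-fold were all RSK or MSK kinases, which act below ERK. RPS6KA3 was lower in MB than in OM (9763 and 3522 a.u., log2 ratio -1.47) and than in NM. RPS6KA2 (3598, 2234 and 7959 a.u. in OM, MB and NM) and RPS6KA5 were lower in MB than in NM. For that ratio the brightest RPS6KA5 probe gave -1.10, and its other probes -1.43 and -0.84. RPS6KA1 was higher in MB than in NM (4685, 8348 and 2754 a.u.), and RPS6KA2 was higher in NM than in OM (1.15).

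Of 22 genes known as AP-1 targets 16 passed. For MB over OM 7 were at least 2-fold lower and 1 higher, 43.8% and 6.25% of the 16, with a median of -0.57. The shares of all genes were 3.79% and 6.66%. IL8, IL6, MMP1 and MMP9 are in the study's own list of genes lower in MB, made from these same arrays. The count is thus not separate evidence on AP-1 targets. The study's list also holds ATF3 and CYR61, so the same limit applies to the counts of other bZIP and other immediate early genes. For MB over NM 6 were lower and 3 higher, with a median of -0.81, and for NM over OM 1 was higher and 0 lower, with a median of 0.04. IL8, a neutrophil chemokine, read 1657 a.u. in OM, 112 in MB and 9213 in NM, with log2 ratios of -3.89 for MB over OM and 2.48 for NM over OM. IL6 read 7223, 835 and 12232 a.u., and the secreted proteases MMP1 and MMP9 read 4367, 387 and 3359 a.u. and 1448, 230 and 2804 a.u. CD44, HMOX1 and LIF made up the 7. TGFB1 and CCND1 were among the AP-1 targets that went the other way for MB over NM, at 2.06 and 1.09.

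Of 10 corepressors and targets of EGR1, 8 passed. PDGFA, a growth factor, read 6817 a.u. in OM, 19756 in MB and 7577 in NM, and TGFB1, which is also in the AP-1 list, read 352, 1348 and 324 a.u. Both were more than 2-fold higher in MB than in either monolayer. NAB2, a corepressor that EGR1 itself induces, read 2730, 5091 and 2282 a.u., past 2-fold for MB over NM only (1.16, and 1.61 on its second probe). FLT1 was lower in NM than in OM on its brightest probe (-1.42), but its second probe gave 0.31. The median of the list was 0.49 for MB over OM, 0.58 for MB over NM and 0.17 for NM over OM.

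The MYC network list holds MAX, the partner of MYC (10612, 12205 and 12870 a.u. in OM, MB and NM), with other MYC, MXD and MLX family genes and proteins that bind them. Of its 13 genes 12 passed for MB over OM and none reached 2-fold. For MB over NM MGA and MLXIP were higher and MXD1, MXD3 and MYCL1 lower. The other 3 MLXIP probes gave 1.47, 1.01 and -0.93, so they disagreed in sign. MXD1, a MAX partner that opposes MYC, read 1747 a.u. in OM, 2277 in MB and 5664 in NM, but its second probe gave 0.55 where the first gave 1.70 for NM over OM. MYCL1 read 27.7 a.u. in OM and 335 in NM, with its MB signal below that limit, so its ratios to MB are lower bounds. MXD1 and MYCL1 were higher and MGA lower in NM than in OM. The brightest MGA probe gave -1.80 for NM over OM, and its second probe -0.71. Of 24 MYC target genes 22 passed, with POLR1B, a subunit of RNA polymerase I, the single one past 2-fold for MB over OM (1018, 2168 and 1066 a.u.). Its brightest probe gave 1.09 there, and its second probe gave 0.98, short of 2-fold. For MB over NM POLR1B, NOLC1, PPRC1 and RRS1 were higher and 0 lower, and for NM over OM 0 were past 2-fold. The other NOLC1 probes gave 1.64 and 0.83 for MB over NM. The medians of the MYC targets were 0.23, 0.17 and -0.06 for MB over OM, MB over NM and NM over OM.

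The 10 called ratios of the 10 genes kept their sign under all 13 alternatives, and 7 stayed at 2-fold or more under every one. The exceptions were FOSL1 for MB over OM, at -0.96 when GAPDH alone set the scale, FOSL2 for MB over NM, at -0.98 averaged over its 3 probes, and FOSB for NM over OM, as low in size as -0.89.

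**Figure D5:**
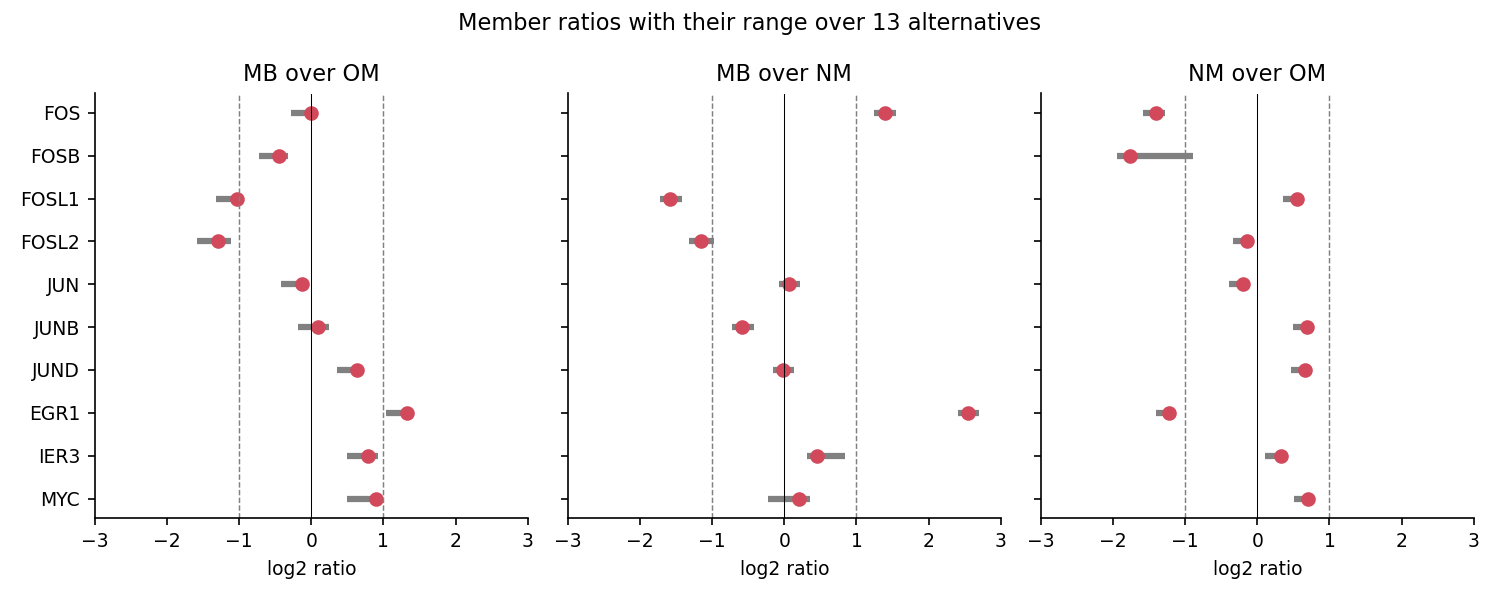
Log2 ratio of each gene in the 3 comparisons (red points) with the lowest and highest value over 13 alternative ways to scale, background-correct, filter or average the signals (grey bars). FOSB is not drawn for MB over NM, where it missed the signal limit. The EGR1 bar for MB over NM runs from 2.41 to 2.70, and the FOSB bar for NM over OM from -1.95 to -0.89.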

How the data were processed

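Total RNA of the 3 populations was hybridised to 3 arrays on 1 slide, so the slide did not differ between populations and was not used as a block. The authors deposited the intensity of each spot as Feature Extraction (9.5.3.1 in the file headers, 9.5 in the submitters' processing notes) wrote it: a fitted spatial surface was subtracted as background and the rest divided by a detrending factor, which was checked on 106238 of 106238 spots without a surrogate value (within 0.1%). The deposited value table holds the same intensity values (130128 of 130128 within 0.1%), on a linear scale with medians of 213.5 (OM), 226.4 (MB) and 175.1 (NM), so no centring had been applied.

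Control spots and outlier spots were left out, spots were averaged, and arrays were scaled to 3 housekeeping genes. Which HSP90 gene the study used is not stated, and HSP90AA1 was chosen for its 10 spots. A ratio whose dimmer array was not well above background was taken against the higher of its own signal and the lowest signal well above background (20.9, 19.8 and 33.2 a.u. on OM, MB and NM), as a lower bound. The spread of single spots is over probes printed in 10 spots, set against spots at the same position of the second array, both above 100 a.u. All genes means the 16418 array names that matched a RefSeq protein-coding gene (13310 by symbol, 3108 by synonym), a choice made after the files had been seen. Probe positions are those of the files in hg17, for which no annotation was used here, so exons and UTRs are not given. The small number of arrays limits the precision.

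The 10 genes and all lists were chosen with earlier results of these data known. Named genes are the 10 with every probe, up to 4 of each list with the largest ratio past 2-fold, those needed for a count of 5 or fewer, and the 3 nearest in their ratios to EGR1 and FOSB, the genes of widest range. Others (SRF, MAX, NR4A1, NR4A3, EGR2, EGR4, CTGF, CD44, HMOX1, LIF, CCND1 and the remaining kinases and early genes of a count) were named after their values were seen. The values of some further genes of the lists are not reported here. Calls were tried on simulated arrays, with planted changes larger than 2-fold and in bright probes only. That trial could not cover changes near 2-fold, dim signals such as FOSB, or the spread between cultures. Alternatives were other scalings (75th percentile, quantile, none, 8 spike-in probes, GAPDH alone, geometric mean), normexp with an offset of 50 (limma 3.58.1 under R 4.3.3), signals without background subtraction, other filters, outlier spots kept, the mean over probes, and the value table. The work used numpy 2.4.6, pandas 2.3.3 and matplotlib 3.10.9 under Python 3.11.15.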

Additional observations from a re-analysis of the deposited data

How the results depend on the processing

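No paired analysis was possible because each population had 1 array. Of 78 counts of called genes under the alternatives, 76 were within 1.5 times of the value reported. The number of genes lower in MB than in OM was 1 with GAPDH alone, and the number lower in MB than in NM was 1 with the mean over all probes of a gene, each in place of 2, through FOSL1 and FOSL2 respectively. With both arrays well above background, or with no filter, FOSB joined FOS and EGR1 as higher in MB than in NM, which made 3, and with normexp or no background subtraction FOSB left the genes lower in NM than in OM, so 2 remained. Small ratios of FOS, JUNB, JUND, JUN and MYC turned sign under some scalings or probe averages. Dim signals limit FOSB most, and leaving out an array was not possible, since none would remain in its population.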
